A study of Homo sapiens with 48 samples.

Results

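Distal unacetylated FOSL1 regions without NF-κB are sites in L3.6pl cells, an established human pancreatic cancer line. A FOSL1 peak was called there in vehicle, away from protein-coding start sites. No H3K27ac peak in vehicle and no NF-κB peak in any condition was called there. They were chosen by 4 criteria. A region was in the vehicle FOSL1 list on chromosomes 1 to 22 and X. It overlapped none of the 10 RELA and RELB lists by 1 bp or more. Its summit lay more than 1 kb from every protein-coding transcription start site of GENCODE 44. No vehicle H3K27ac peak lay within 500 bp of the summit. Of 58828 FOSL1 regions, 50097 overlapped no RELA or RELB region, and 15813 met all criteria, which is 26.9% (exact 95% interval 26.5 to 27.2) of the FOSL1 list. They are called distal unacetylated regions here. The word unacetylated stands for the absence of a called peak and not for a measured absence of the mark.

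FOSL1, also named FRA-1, is a FOS family protein that binds DNA as a dimer with a JUN protein. These dimers make up the factor AP-1, which recognises TGACTCA and close relatives of it. H3K27ac, acetylation of lysine 27 of histone H3, marks active enhancers and promoters, and RELA and RELB are the NF-κB subunits of the classical and the alternative pathway.

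The series has 48 ChIP-seq samples in 16 conditions of 3 replicates, and each condition is represented by 1 peak list labelled as merged. Whether the RELA list at 30 min of TNFα covers all replicates is open to doubt, as described under the processing. FOSL1 was measured in vehicle only. H3K27ac, RELA and RELB were measured in vehicle and after 30 min and 6 h of TNFα, a ligand of classical NF-κB signalling, or TWEAK, a ligand of the alternative pathway. All conditions used the same line, and the labels name no genetic change in it. Vehicle is PBS per the labels. With 1 list per condition no spread between replicates can be given, so the intervals below cover the number of regions only. Regions are not replicates, and no p-value is given. A difference between 2 shares is given in percentage points with its Newcombe 95% interval and with the number of the 23 chromosomes that show the same direction. The depth of the libraries is unknown. The vehicle H3K27ac list had a peak within 500 bp of a start site of all 8 epithelial marker genes, among them EPCAM, KRT19 and CDH1. It had none at the 4 blood and the 4 endothelial genes, but one at 2 of 4 fibroblast genes (COL1A1 and PDGFRB) and at 3 of 4 neural genes (SNAP25, SYT1 and GFAP).

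The sequences of 8 strong regions are shown because they carry a feature that more than 50% of the distal unacetylated regions share, an AP-1 match within 100 bp of the summit. Each is the 200 bp around the FOSL1 summit on the plus strand of hg38, and capitals mark TGANTCA. The first 6 are from the regions with the highest FOSL1 enrichment, and the last 2 from the strongest of those that had an H3K27ac peak in every treated list. The name is that of the nearest protein-coding start site, which need not be the gene the site acts on.
HTR5A, chr7:155166804-155167003: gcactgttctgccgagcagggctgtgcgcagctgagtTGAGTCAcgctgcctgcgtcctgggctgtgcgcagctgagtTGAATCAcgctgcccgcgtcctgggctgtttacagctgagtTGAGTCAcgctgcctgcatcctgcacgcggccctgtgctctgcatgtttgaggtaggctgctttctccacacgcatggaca
STX3, chr11:59776564-59776763: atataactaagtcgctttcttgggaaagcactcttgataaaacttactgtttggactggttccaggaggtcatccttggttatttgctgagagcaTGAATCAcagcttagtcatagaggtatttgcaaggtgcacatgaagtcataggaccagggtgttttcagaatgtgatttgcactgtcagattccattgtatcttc
ONECUT1, chr15:53072187-53072386: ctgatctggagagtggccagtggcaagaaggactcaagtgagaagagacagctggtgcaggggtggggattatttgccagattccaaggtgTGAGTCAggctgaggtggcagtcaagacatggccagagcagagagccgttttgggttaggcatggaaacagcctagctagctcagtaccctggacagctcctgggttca
TEX26, chr13:30977864-30978063: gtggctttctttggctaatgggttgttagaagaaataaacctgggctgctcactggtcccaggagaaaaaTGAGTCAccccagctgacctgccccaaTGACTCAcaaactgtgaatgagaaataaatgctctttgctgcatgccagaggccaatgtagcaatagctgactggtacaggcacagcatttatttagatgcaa
SPATA31A1, chr9:39327744-39327943: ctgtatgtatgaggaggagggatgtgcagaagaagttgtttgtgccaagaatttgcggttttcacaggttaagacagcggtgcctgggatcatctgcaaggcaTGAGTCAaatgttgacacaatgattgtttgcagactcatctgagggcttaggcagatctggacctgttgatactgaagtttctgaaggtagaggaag
CNTNAP3C, chr9:61291089-61291288: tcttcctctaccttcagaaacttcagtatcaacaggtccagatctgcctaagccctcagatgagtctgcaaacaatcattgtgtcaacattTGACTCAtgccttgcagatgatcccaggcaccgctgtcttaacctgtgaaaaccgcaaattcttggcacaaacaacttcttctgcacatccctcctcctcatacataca
LAMC1, chr1:183060527-183060726: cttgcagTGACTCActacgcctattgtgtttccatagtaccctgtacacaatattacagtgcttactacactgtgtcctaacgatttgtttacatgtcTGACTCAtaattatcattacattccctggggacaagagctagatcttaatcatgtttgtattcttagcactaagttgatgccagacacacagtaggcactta
TRAF3IP3, chr1:209747792-209747991: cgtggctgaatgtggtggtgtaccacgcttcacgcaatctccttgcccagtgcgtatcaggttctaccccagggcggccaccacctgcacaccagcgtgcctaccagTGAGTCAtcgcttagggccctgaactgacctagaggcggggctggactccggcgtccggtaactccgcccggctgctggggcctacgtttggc

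The window near HTR5A held 3 matches at a spacing of 41 bp. The bases around each match recurred with few changes at the same spacing, so the 3 matches lie in repeats of the same unit. The region still counted as outside tandem repeats, as defined below, because its self-match over 1000 bp was 0.308. The match started at base 96 of the 200 in the STX3 window and at base 92 near ONECUT1. Near TEX26, 2 matches lay 27 bp apart. The windows near SPATA31A1 and CNTNAP3C were the same sequence on opposite strands, identical at all 199 of 199 aligned bases. The 32 bp at their summits occur 9 times in the genome. The regions near SPATA31A5 and SPATA31A3 on the same chromosome were copies of them as well, with identities of 99.5% and 100% to the SPATA31A1 window. Reads from such copies can be placed at any of them, so these 4 regions among the 10 strongest cannot be counted as separate sites. The 32 bp at the summit near GOLGA6L2, also among the 10 strongest, occur 2 times in the genome.

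The fold enrichment of FOSL1 over input was 29.2 at the region near HTR5A, a serotonin receptor gene, 96580 bp from its start site and outside genes. It was 25.2 in an intron 10403 bp from the start of STX3, which encodes a syntaxin of the apical membrane. It was 23.2 at a region 281951 bp from ONECUT1, a transcription factor of pancreas development. The remaining 7 of the 10 strongest lay between 20.9 and 23.1, near TEX26, SLC4A11, GOLGA6L2, SPATA31A1, CNTNAP3C, SPATA31A5 and SPATA31A3. All 10 had at least 1 AP-1 match within 100 bp of the summit. Of the 40 possible combinations of these regions with a treated H3K27ac list, only the SLC4A11 region had a peak, at 30 min of TNFα.

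FOSL1 enrichment at the distal unacetylated regions was lower than at the distal acetylated regions, the 24667 FOSL1 regions that met the same criteria except that they had a vehicle H3K27ac peak. The median fold enrichment was 4.75 (quartiles 3.95 and 5.93) against 5.74 (4.33 and 8.65). It was 4.29 at the 9617 promoter regions without NF-κB. A fold enrichment above 4.98, the median of all FOSL1 regions, was found at 43.0% of the distal unacetylated and 62.1% of the distal acetylated regions. The difference was −19.1 points (−20.1 to −18.1), with the same direction on all 23 chromosomes. The regions were also shorter, with a median of 184 bp against 272 bp. The highest values overlapped, and 504 distal unacetylated regions were in the top decile of both classes, at a fold enrichment of 11.0 or more.

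**Figure D1:**
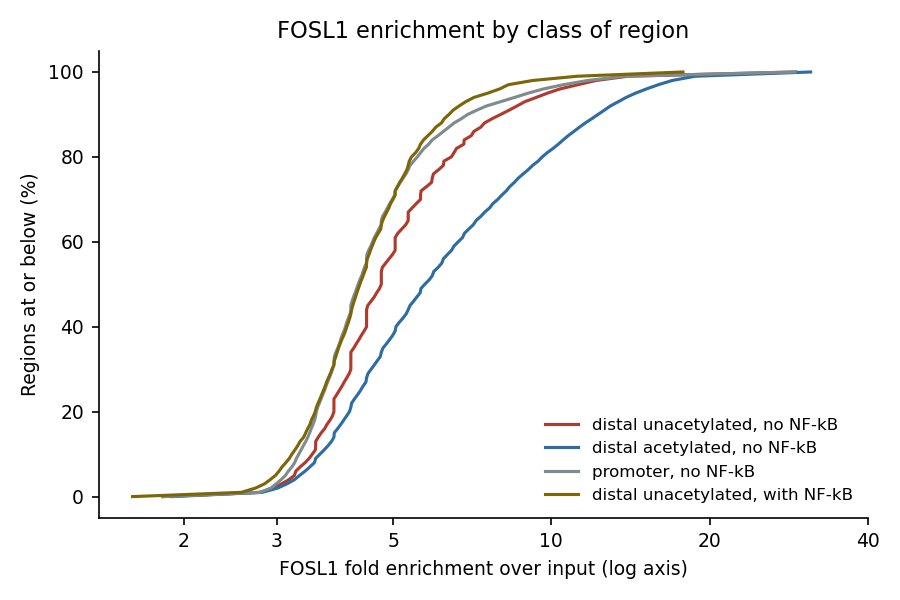
Cumulative share of regions (vertical axis, percent) by FOSL1 fold enrichment over input (horizontal log axis) in 4 classes of FOSL1 regions. The curve of the distal unacetylated regions, with a median of 4.75, runs left of that of the distal acetylated regions, with a median of 5.74.

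AP-1 matches were common at the distal unacetylated regions. TGANTCA, searched on both strands, was in the 200 bp around the summit of 9069 of 15813 regions, or 57.4% (56.6 to 58.1). Of all 200 bp windows of the same chromosomes, 6.17% held it. The distal acetylated regions had it at 55.2% and the promoter regions at 16.0%. The difference between the distal classes was 2.13 points (1.14 to 3.12) and had the same direction on 14 of 23 chromosomes. It was 7.57 points (6.56 to 8.58), with all 23 chromosomes in that direction, outside tandem repeats.

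The matches lay at the summit. The median distance of the nearest match from the summit was 17 bp, and 65.7% of the distal unacetylated regions with a match had it centred within 25 bp, against 69.5% of the distal acetylated ones (−3.82 points, −5.06 to −2.57). The bin from the summit to 20 bp downstream held 17.2 matches per 100 regions, and the bin centred 110 bp downstream 0.936. Of the regions with a match, 85.3% had the C or G form (TGACTCA or TGAGTCA) nearest the summit, compared with 47.7% of all matches in the genome. An A or G just before the match and a C or T just after it were found at 60.3% of the nearest matches. They were found at 50.9% in the distal acetylated regions, a difference of 9.46 points (8.15 to 10.8) seen on 23 of 23 chromosomes, and at 23.1% of matches in the genome.

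**Figure D2:**
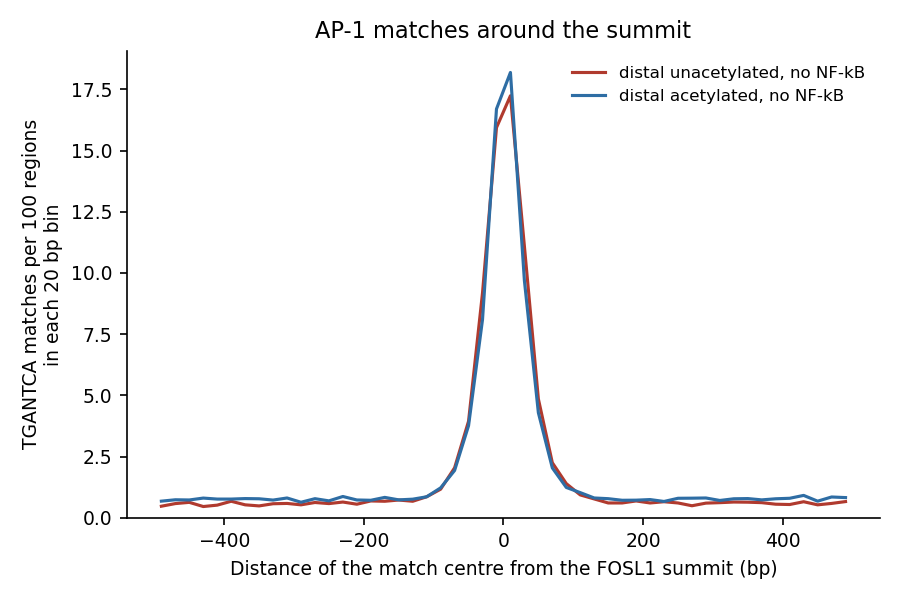
Number of TGANTCA matches per 100 regions in bins of 20 bp (vertical axis) by distance of the match from the FOSL1 summit (horizontal axis, bp). Both distal classes peak at the summit, at 17.2 and 18.2 matches per 100 regions, and fall to under 1 per 100 regions near the edges.

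At equal FOSL1 enrichment the distal unacetylated regions held AP-1 matches more often. Both distal classes were split together into deciles of fold enrichment. In the fourth decile (4.33 to 4.75), 56.5% of 2517 distal unacetylated and 36.8% of 2302 distal acetylated regions had a match, a difference of 19.7 points (16.9 to 22.4). In the sixth decile it was 20.6 points (17.6 to 23.5). In the lowest decile the shares were 23.1% and 20.8%, a difference of 2.27 points (−0.193 to 4.74). In the highest they were 90.3% and 89.9%, a difference of 0.412 points (−2.64 to 2.93), so neither end was told apart by these counts. The deciles include regions in tandem repeats, described below. Of the 3670 distal unacetylated regions in their own lowest quintile of enrichment, 1063 lay in such repeats. Of all 1619 distal unacetylated regions in tandem repeats, 5.93% had a match. Decile values outside tandem repeats are not given, and the part of the repeats in the small difference at the low end was not tested. Averaged over the deciles with the distal unacetylated regions as weights, the difference was 14.0 points (13.0 to 14.9). This interval is symmetric about the average and is not a Newcombe interval.

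**Figure D3:**
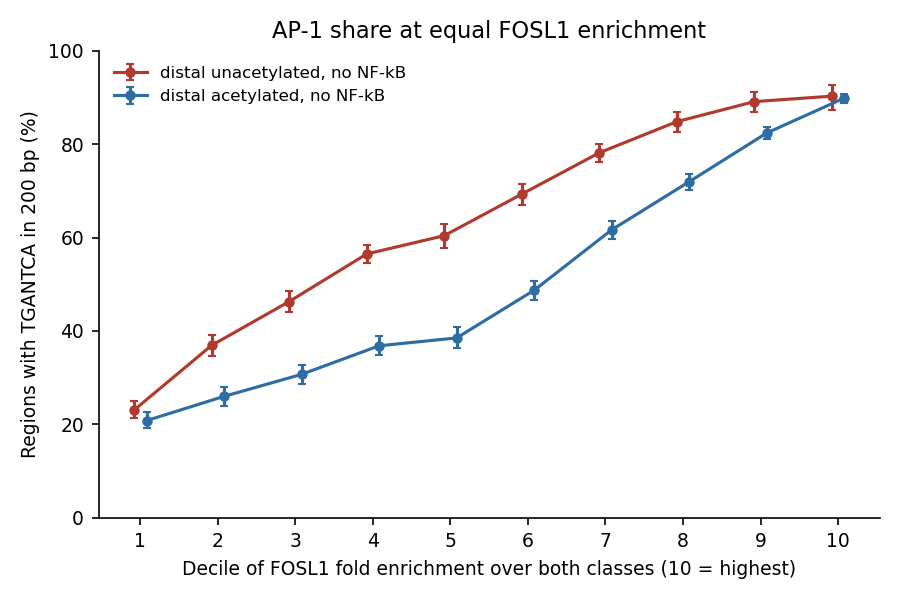
Share of regions with TGANTCA in 200 bp (vertical axis, percent) by decile of FOSL1 fold enrichment over both distal classes (horizontal axis), with exact 95% intervals as bars. The distal unacetylated regions lie above the distal acetylated ones in deciles 2 to 9, by 19.7 points in decile 4, and the bars overlap in deciles 1 and 10.

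Of the 6744 distal unacetylated regions without an AP-1 match, 1523 lay in tandem repeats, as described below, and 542 carried the consensus of CTCF, the insulator protein that holds chromatin loops. In all, 625 of 15813 regions (3.95%, 3.65 to 4.27) had that consensus, against 1.72% of the distal acetylated regions and 0.0708% of genome windows. The difference between the distal classes was 2.23 points (1.90 to 2.58), in the same direction on 22 of 23 chromosomes. AP-1 and CTCF matches were seldom together, in 83 of the 625 regions. The regions with CTCF had a median FOSL1 fold enrichment of 4.45, and only 46 of the 3163 regions in the top quintile of enrichment had it, or 1.45%. In each quintile of enrichment of the regions without AP-1 outside tandem repeats, 8.88% to 13.3% had the CTCF consensus, and 1.35% to 4.60% of the distal acetylated regions without AP-1.

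Matches of some other factors were rarer than at the distal acetylated regions. GGGCGG, bound by KLF and SP proteins, was at 3.97% and 8.58% (−4.61 points, −5.07 to −4.14; 23 of 23 chromosomes). CCGGAAG, an ETS site, was at 0.594% and 1.97% (−1.38 points, −1.59 to −1.16; 23 of 23 chromosomes). TGTTTAC, a forkhead (FOX) site, was at 6.46% and 8.44% (−1.99 points, −2.50 to −1.47; 20 of 23 chromosomes), and both shares were above the 3.09% of genome windows. Among regions with an AP-1 match the order was the opposite, with 6.48% (5.99 to 7.01) of the distal unacetylated and 5.43% (5.05 to 5.82) of the distal acetylated regions. GGAATG, a site of the TEAD factors that work with YAP, was at 15.5% and 16.8% (−1.39 points, −2.12 to −0.651; 15 of 23 chromosomes). Of the 2445 distal unacetylated regions with it, 386 lay in tandem repeats, and outside these the difference was −2.38 points (−3.12 to −1.63; 17 of 23 chromosomes). For TGTGGTT, the RUNX site, the difference of −0.134 points (−0.559 to 0.299) spanned 0, as did that for AGATAA, the GATA site (−0.334 points, −0.975 to 0.313). The NF-κB consensus was at 1.04% of the distal unacetylated regions, below the 1.54% of genome windows. NF-κB binding was one of the criteria, so this is a description. The median GC content of the 200 bp was 42.0%, against 45.5%. A GC content above the median of all FOSL1 regions was less frequent by 13.9 points (difference −13.9, −14.9 to −13.0; 23 of 23 chromosomes).

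The next lines show the windows of 2 of the 5 strongest regions without an AP-1 match, the second and the third in order, to set beside those with a match. The first lies in a coding exon and is not shown. Capitals mark TGTTTAC and also TGACACA. The latter and another sequence resembling the AP-1 match, TGACTAA, were looked for after these sequences had been seen.
MEGF10, chr5:127206372-127206571: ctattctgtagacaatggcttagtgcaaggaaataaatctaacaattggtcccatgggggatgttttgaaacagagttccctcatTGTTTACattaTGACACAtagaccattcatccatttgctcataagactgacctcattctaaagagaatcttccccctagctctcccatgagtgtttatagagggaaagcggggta
CORIN, chr4:47716114-47716313: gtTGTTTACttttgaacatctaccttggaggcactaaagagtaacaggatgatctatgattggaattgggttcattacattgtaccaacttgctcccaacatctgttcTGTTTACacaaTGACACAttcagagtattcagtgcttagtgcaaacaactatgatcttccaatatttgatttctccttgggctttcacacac

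The region near MEGF10, a gene of a phagocytosis receptor, had a fold enrichment of 17.9, and that in an intron of CORIN, a serine protease gene, 17.7. The other 3 of the 5 strongest were in a coding exon of SPOCK3 (18.2), in an intron of ANKS1B (17.6) and near CNTN1 (17.6). Each of the 5 had TGACTAA or TGACACA within 100 bp of the summit, and 4 of 5 had TGTTTAC. Over all 5221 regions without AP-1 outside tandem repeats, TGACTAA was at 67 of 1047 regions of the lowest and at 30.3% (27.4 to 33.3) of the highest quintile of FOSL1 enrichment, and at 2.26% of genome windows. The distal acetylated regions without AP-1 had it at 5.71% and 32.6% of their own lowest and highest quintiles. TGACACA was at 5.64% and 8.99% of the lowest and highest quintiles of the distal unacetylated regions, at 4.59% and 9.14% of those of the distal acetylated regions and at 3.14% of genome windows. TGTTTAC was at 5.73% and 10.5% of the lowest and highest quintiles of the distal unacetylated regions, and at 8.12% and 12.1% of those of the distal acetylated regions. These shares are descriptions, since the search was chosen after sequences of these regions had been read.

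The distal unacetylated regions lay farther from genes. The median distance to the nearest protein-coding start site was 50343 bp, compared with 35238 bp, and 50.1% were more than 50 kb away, compared with 40.5% (9.63 points, 8.63 to 10.6; 23 of 23 chromosomes). Outside tandem repeats the difference was 5.13 points (4.11 to 6.16). Of the 15813 regions, 42.2% were intergenic, 38.8% in an intron of a protein-coding gene and 13.9% in an intron of another gene. Coding exons held 131. The distance to the next FOSL1 summit was a median of 14858 bp, and 8640 bp at the distal acetylated regions. The distal unacetylated share of both distal classes was lowest on chromosome 12, at 33.8%, and highest on chromosome 18, with 351 distal unacetylated against 429 distal acetylated regions.

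By gene body, 4259 of 19970 protein-coding genes held at least 1 distal unacetylated region and 15 held 10 or more. Of the genes with the most, 10 are named, AUTS2 (15), PARD3 and ZFPM2 (14 each), IQCJ-SCHIP1 (13), PDE4D and TBC1D5 (12 each), CCSER1, PCDH15 and TENM2 (11 each) and DLG2 (10), which had the same number as others that are not named. They are long, with a median of 1286 kb, and the count is not corrected for length. In AUTS2, a neurodevelopmental gene, distal unacetylated regions outnumbered distal acetylated ones by 15 to 7. In PDE4D, a cAMP phosphodiesterase gene, the numbers were 12 and 28. PARD3, a polarity gene of epithelial cells, had 14 and 18.

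Regions were assigned to the nearest protein-coding start site and counted for 8 gene lists. The distal unacetylated regions made up 39.1% (38.6 to 39.5) of both distal classes over all genes. They made up 17.9% (11.5 to 26.1), 21 against 96, near 24 genes of adhesion and invasion. CD44, a hyaluronan receptor, had 2 and 7, ITGA6, an integrin, 3 and 10, and CAV1, of caveolae, 2 and 3. They made up 17.5% (8.75 to 29.9), 10 against 47, near 14 genes of YAP and TEAD signalling, such as TEAD1 with 3 and 10 and WWTR1 with 2 and 9. Near 20 pancreatic and gut lineage factors they made up 25.8% (19.2 to 33.3), with 12 and 23 near SOX9, a ductal factor, and 4 and 17 near KLF4. Near 21 genes of NF-κB feedback and cytokines they made up 24.6% (14.1 to 37.8), with 2 and 1 near NFKB1, 2 and 2 near NFKBIA and 1 and 6 near BIRC3. Near 19 AP-1 genes they made up 28.6% (17.3 to 42.2), with 4 and 12 near JUN and 2 and 9 near FOSL2. The 9 histone genes had 0 distal unacetylated regions and 1 distal acetylated region.

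For genes of epithelial-mesenchymal transition the share was 38.8% (30.7 to 47.5), 54 against 85, with 14 and 5 near ZEB2, a repressor of CDH1, and 10 and 28 near TGFBR2. For 26 genes of axon guidance and neural adhesion the share was 52.2% (46.6 to 57.8), 165 against 151. Of these, 34 were nearest EPHA3, and 22 of the 34 lay in tandem repeats. Outside tandem repeats the list had 48.5% (42.6 to 54.3) and all genes had 36.9%. CTNNA2, a neural catenin gene, had 14 and 21. The lists were chosen with earlier results of these data known, so their shares are descriptions.

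In the treated cells most distal unacetylated regions remained without a peak. In 12647 of 15813 regions (80.0%, 79.3 to 80.6) no treated H3K27ac list had a peak within 500 bp of the summit, 1981 had one in 1 list and 97 in all 4. With TNFα, a peak was found at 5.81% (5.45 to 6.19) after 30 min and 11.9% (11.4 to 12.4) after 6 h. With TWEAK, the shares were 6.03% (5.67 to 6.42) and 6.80% (6.41 to 7.20). Over all 19205 FOSL1 regions without a vehicle peak within 500 bp, taken as background, the shares with TNFα were 9.65% and 13.6%. With TWEAK they were 9.77% and 8.24%. The distal unacetylated regions had a lower share in each list. The background is not separate from them, since it includes the 15813 regions themselves. It also includes the 2828 NF-κB-overlapping regions described below, of which only 376 lay outside tandem repeats. Outside these repeats the distal unacetylated shares were 5.43% and 12.5% with TNFα and 5.53% and 6.99% with TWEAK. No background outside tandem repeats is given, and the part of the repeats in the lower shares was not tested. The TNFα list of 6 h was also the longest, with 61154 peaks against 53861 to 57982 in the other treated lists.

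These peaks were small. The peaks of the 6 h TNFα list that reached a distal unacetylated region had a median length of 336 bp and a −log10 q of 2.27, against 744 bp and 5.45 for the whole list. For the other treated lists the medians were 289 to 328 bp and 1.90 to 2.40. With treated peaks of −log10 q of at least 3, the shares were 1.90% and 3.21% with TNFα and 1.79% and 0.885% with TWEAK, each at 30 min and at 6 h. For comparison in the opposite direction, 75.2% of the distal acetylated regions still had a peak after 30 min and 91.9% after 6 h with TNFα, and with TWEAK these were 78.5% and 87.3%. Peaks near the calling limit can appear in 1 list and be missed in another, and their part in these shares was not tested.

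NF-κB-overlapping regions of the same kind, 2828 distal FOSL1 regions without a vehicle H3K27ac peak that overlapped a RELA or RELB region, had a peak more often. At 30 min of TNFα the share was 30.9%, and the difference was −25.1 points (distal unacetylated regions without NF-κB minus those with NF-κB, −26.9 to −23.4). After 6 h it was −11.6 points (−13.3 to −9.98). With TWEAK it was −24.2 points (−26.0 to −22.5) after 30 min and −9.68 points (−11.1 to −8.30) after 6 h. All 23 chromosomes had the same direction in each list. However, 86.7% of the NF-κB-overlapping regions lay in tandem repeats, and only 376 did not. With both classes restricted to regions outside tandem repeats, the differences with TNFα were −35.8 points (−40.8 to −30.9) and −32.2 points (−37.3 to −27.2), and those with TWEAK −11.0 points (−15.1 to −7.53) and −11.9 points (−16.2 to −8.23). The direction was the same on 20 to 23 chromosomes.

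**Figure D4:**
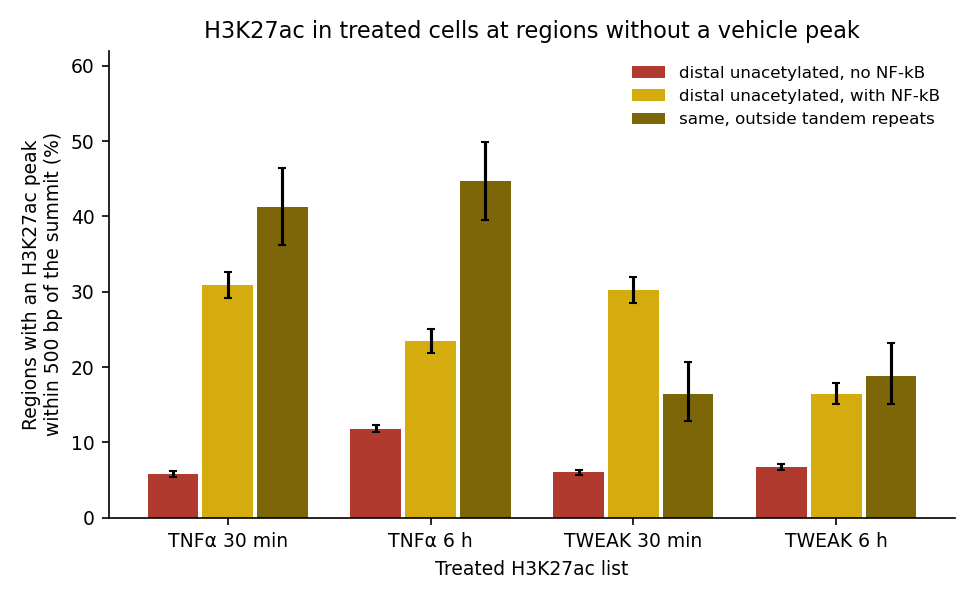
Share of regions with an H3K27ac peak within 500 bp of the summit (vertical axis, percent) in the 4 treated lists, for distal unacetylated FOSL1 regions without NF-κB, with NF-κB, and with NF-κB outside tandem repeats. Bars are shares with exact 95% intervals. The regions without NF-κB have the lowest bar in each list, 5.81% to 11.9%.

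The AP-1 and enrichment differences from the NF-κB-overlapping regions changed as well when tandem repeats were left out. The AP-1 share was 57.4% against 6.61% (50.7 points, 49.5 to 51.9), and outside tandem repeats 63.2% against 45.5% (17.7 points, 12.6 to 22.8). A fold enrichment above the median of all FOSL1 regions was more frequent by 12.8 points (10.9 to 14.6) with all regions, but outside tandem repeats it was found at 47.0% of the regions without and 49.2% of those with NF-κB. With the median also taken outside tandem repeats, the difference was −3.34 points (−8.46 to 1.69), not told apart from 0.

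Among the distal unacetylated regions, those with higher FOSL1 enrichment more often had a peak at 6 h. From the lowest to the highest quintile of FOSL1 fold enrichment the share with a peak at 6 h of TNFα was 8.75%, 9.64%, 11.4%, 13.4% and 16.7%. The difference between the highest and the lowest quintile was 7.98 points (6.40 to 9.58), with the same direction on 21 of 23 chromosomes, and 6.82 points (5.07 to 8.55) outside tandem repeats. At 6 h of TWEAK it was 3.12 points (1.86 to 4.40; 18 of 23 chromosomes). At 30 min the direction was opposite, with −1.68 points (−2.82 to −0.525) for TNFα and −2.32 points (−3.48 to −1.15) for TWEAK. Outside tandem repeats these were −0.332 points (−1.54 to 0.852) and −0.811 points (−2.04 to 0.388), not told apart from 0.

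**Figure D5:**
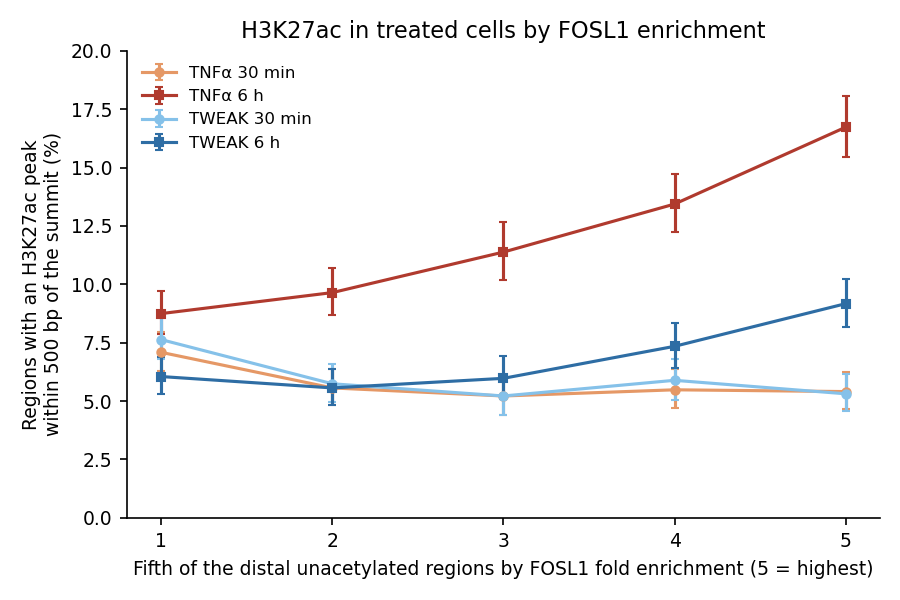
Share of the distal unacetylated regions with an H3K27ac peak within 500 bp of the summit (vertical axis, percent) by quintile of FOSL1 fold enrichment (horizontal axis, 5 is the highest), with exact 95% intervals. The line of 6 h of TNFα runs from 8.75% to 16.7%, and the lines of both 30 min lists lie between 5.22% and 7.63%.

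At 6 h of TNFα the split by AP-1 match had the same direction. Regions with a match had a peak more often at 6 h of TNFα, at 13.0% against 10.3% of those without (2.69 points, 1.69 to 3.69; 20 of 23 chromosomes), although the difference was 1.42 points (0.292 to 2.52; 15 of 23 chromosomes) outside tandem repeats. They had one less often at 30 min of TNFα, at 4.50% against 7.58% (−3.08 points, −3.85 to −2.32; 21 of 23 chromosomes), and at 30 min of TWEAK, at 4.12% against 8.60% (−4.48 points, −5.27 to −3.70; 21 of 23 chromosomes). Outside tandem repeats the differences were −2.53 points (−3.36 to −1.73) and −3.89 points (−4.75 to −3.06). At 6 h of TWEAK the difference of −0.195 points (−0.997 to 0.594) spanned 0. The 4 comparisons share the same regions and the same absence of a vehicle peak, so they are not independent of each other.

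The regions with a peak overlapped in part between the lists, which share the absence of a vehicle peak. Of the 919 regions with a peak at 30 min of TNFα, 421 (45.8%) also had one at 30 min of TWEAK, which is 44.1% of the 954 there. Of the 1075 regions at 6 h of TWEAK, 539 (50.1%) had one at 6 h of TNFα, which is 28.8% of the 1874 there. A peak at 6 h of TNFα alone was the most frequent pattern, with 1034 regions, followed by 6 h of TWEAK alone with 371 and both 6 h lists with 309. The 6 h TNFα list also covered the most sequence, 55.5 Mb against 45.1 to 46.9 Mb in the other treated lists. Patterns and overlaps were not counted over all FOSL1 regions without a vehicle peak. Whether their order is particular to the distal unacetylated regions was not tested.

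The strongest region with a peak in all 4 treated lists lay in an intron of LAMC1, a laminin chain of basement membranes, 35917 bp from the nearest start site and 11835 bp from the nearest vehicle H3K27ac peak, with a FOSL1 fold enrichment of 19.8. Others were near TRAF3IP3 (15.9) and GJA3 (15.4), and a weaker one was near C1QTNF1 (12.9). These 4 had an AP-1 match within 20 bp of the summit, as the printed LAMC1 and TRAF3IP3 windows show. They were picked for high FOSL1 enrichment. Over all 97 such regions the median fold enrichment was 4.60 and 39.2% had an AP-1 match, compared with 4.71 and 57.8% of the regions with no treated peak. By gene list, a peak in at least 1 treated list was found at 10 of 21 distal unacetylated regions near adhesion and invasion genes, 6 of 14 near NF-κB feedback genes, 2 of 10 near YAP and TEAD genes and 8 of 41 near lineage factors. It was found at 8 of 54 near EMT genes, 18 of 165 near axon guidance genes and 1 of 16 near AP-1 genes, and at 3166 of 15813 over all genes.

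The share with a peak in any treated list was 43.2% (38.6 to 47.9) of the 454 regions whose nearest vehicle H3K27ac peak was at most 1 kb away, and 8.81% (7.60 to 10.1) of the 2010 regions more than 100 kb away. In between it did not fall steadily, with 20.8% from 1 kb to 5 kb, 25.7% for the next 4776 regions and 16.8% for the 5385 regions after them. The first group borders on the criterion. There, the 85 regions with a vehicle peak up to 100 bp beyond the 500 bp limit had a median FOSL1 fold enrichment of 4.46 and an AP-1 share of 58.8%, and the 114 regions left out with a peak in the last 100 bp of it 4.25 and 52.6%. For the start site criterion, the 216 regions up to 500 bp beyond 1 kb had 4.75 and 56.9%, and the 166 regions left out in the last 500 bp before it 4.45 and 42.8%. Over the 5 groups by distance from a vehicle peak the AP-1 share lay between 53.9% and 61.2%.

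A subset was set apart by its sequence. Of the 15813 regions, 1619 (10.2%, 9.77 to 10.7) lay in tandem repeats, defined as at least 0.4 equal bases when the 1000 bp around the summit are shifted against themselves by 1 to 400 bp. At the distal acetylated regions it was 1.48%, a difference of 8.76 points (8.27 to 9.27; 23 of 23 chromosomes). The 32 bp at the summit occurred a median of 685 times in the genome, and 1181 of the 1619 lay more than a megabase from a protein-coding start site. Only 5.93% of them had an AP-1 match, close to the 6.17% of genome windows, and their median fold enrichment was 3.58. Their median distance to the nearest RELA or RELB region was 4417 bp, compared with 111698 bp outside tandem repeats. Of all FOSL1 regions in tandem repeats 66.3% overlapped RELA or RELB, and of those outside 8.61%. A peak at 30 min of TWEAK was found at 10.4% of them and at 6 h of TNFα at 6.30%, compared with 5.53% and 12.5% of the other regions, in these directions on 10 and 21 of 23 chromosomes. Where a read from such a repeat came from cannot be told from the lists.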

How the data were processed

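Chromatin of L3.6pl cells was precipitated for FOSL1, RELA, RELB and H3K27ac in 48 samples, and the labels gave each its condition. Per the study's methods, the authors aligned with Bowtie2 2.5.0 on hg38 and called peaks with MACS2 against input, as broad peaks for H3K27ac and narrow peaks otherwise. The MACS2 version, a blacklist and the treatment of reads with several matches are not given in the sources used here. The 16 deposited lists hold 1 merged result per condition. Peak names in the 30-min TNFα list of RELA mention the first replicate, so whether that list covers all replicates is open to doubt. The deposited fold enrichment is the authors' ratio of ChIP over input, and the deposited −log10 q is the authors' significance of a peak. Depth is unknown.

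Regions, overlaps of at least 1 bp, distances and motifs were computed with Python 3.11.15, numpy 2.4.6, pandas 2.3.3 and scipy 1.17.1, and overlaps were checked against bedtools 2.31.1 on simulated data. Sequence came from hg38 and start sites from protein-coding transcripts of GENCODE 44. Shares carry exact (Clopper-Pearson) and differences Newcombe 95% intervals, which count regions and no replicate error. The average over deciles of FOSL1 enrichment carries a symmetric 95% interval instead. The members, gene lists and motifs were chosen with earlier results of these data known. Named regions included the 10 with the highest fold enrichment outside tandem repeats, by the self-match over 1000 bp. That measure can miss short repeats, as at the region near HTR5A, whose window repeats a unit of 41 bp. The other named regions were the 5 strongest with a peak in all 4 treated H3K27ac lists and the 5 strongest without an AP-1 match within 100 bp. Named genes were the 10 with the most summits in the gene body and up to 3 per gene list. TGACTAA and TGACACA were added after the data were seen. The alternatives covered stricter peaks, other windows and distances, tandem repeats, sequence copies, motif settings and matching on FOSL1 enrichment. Start sites of genes, sequence found once and the splits of treated peaks outside tandem repeats were added after the data were seen. The reference holds no repeat masking, so a planned comparison of masked repeats was not run. Some regions and genes picked by the rules for named regions and genes are not reported here.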

Additional observations from a re-analysis of the deposited data

How the results depend on the processing

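No paired analysis was possible because each condition has 1 merged list. Of 125 values under alternatives, 122 kept their direction and their side of 0 or, for the number of regions, stayed within 1.5 times. The number of regions was 15813 and became 6768 with FOSL1 peaks of at least 5-fold enrichment, since fewer peaks enter. The difference in fold enrichment above the median from the NF-κB-overlapping regions, 12.8 points, reversed to −3.34 outside tandem repeats and to −1.72, with the median taken over the remaining regions in both, where the 32 bp at the summit occur once in the genome, an alternative added after the data were seen. Both intervals spanned 0, and the cause was not tested. The AP-1 difference from the distal acetylated regions ranged from 1.34 to 14.0 points, lowest with a motif window of 100 bp and highest within deciles of FOSL1 enrichment, and that from the NF-κB-overlapping regions from 17.7 to 64.3. The difference in H3K27ac peaks ranged from −39.6 to −20.4 at 30 min of TNFα, −35.1 to −8.12 at 6 h of TNFα, −28.1 to −11.0 at 30 min of TWEAK and −13.4 to −4.90 at 6 h of TWEAK. The share more than 50 kb from a start site differed by 5.13 to 11.95 points, that more than 100 kb away by 12.2, and that above the median GC content by −17.4 to −7.48. The planned comparison of masked repeats was not run, because the reference carries no masking. Depth and replicate spread limit all values, and neither can be read from merged lists.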
